A study of Mus musculus with 10 samples.

Results

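Tregs isolated from the ischemic mouse brain were compared with Tregs from the mouse spleen by RNA-seq, with 2 libraries of Ischemia-Tregs, named Ischemia-3 and Ischemia-4, and 2 of SP-Tregs, named SP-9 and SP-10. The Ischemia-Tregs were taken 28 days after the onset of ischemic stroke, and the SP-Tregs had no treatment. Both groups carry the strain label C57BL/6J, and the study selected hCD2+ cells for sequencing on a magnetic separator, hCD2 being a human surface protein that Foxp3-hCD2 knock-in mice express under control of the Foxp3 locus. Mice in the study were 8 to 12 weeks old, and those that underwent transient occlusion of the middle cerebral artery were male. The comparison covers all genes whose counts could be placed beside their own gene ID, which were 25404 of the 55401 IDs in the table. It uses 4 of the 10 libraries of the series. Whether SP-9 and SP-10, or Ischemia-3 and Ischemia-4, are cells of separate mice is not stated, so each p-value rests on a spread between libraries that could be technical. For flow cytometry, the study digested brains with collagenase D and DNase I and spun them on Percoll, and no such step is described for the spleen. Whether the sequenced brain cells were prepared in this way is not stated. Tissue, stroke and preparation therefore cannot be told apart in any difference given here.

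Regulatory T cells, or Tregs, are CD4+ T cells that depend on the transcription factor Foxp3 and hold immune responses in check. Most Tregs of the spleen recirculate through lymphoid organs and keep features of resting T cells, such as the transcription factors Lef1, Tcf7 and Bach2. Tregs that settle in tissues differentiate further, lose lymphoid homing receptors, gain receptors for tissue chemokines and alarmins, and make repair factors such as amphiregulin. Cells that receive signals through the T cell receptor, cytokine receptors or G protein-coupled receptors switch on early response genes, together with inhibitors that end the signal.

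The total count ranged from 5186728 to 6634583 per library, of which 83.7% to 92.6% lay in placed rows. Mitochondrial ribosomal RNA took up 15.9% to 17.0% of the placed counts, although the kit selects poly(A) RNA, and Gm23935, a predicted gene that gathers ribosomal RNA reads, took up 11% to 14.3%. Counts stood beside their own ID in the first stretch of the table and up to 19 rows away in 7 later stretches. Across genes, the placed counts correlated with those of the co-cultured Tregs in the same table with r = 0.884 to 0.938 in the 8 stretches, against at most 0.347 at any other slide within 10 rows. Rows outside these stretches were left out, and gene names rest on this placement. The 4 columns stand in the same row at every slide, so a wrong slide would misname a gene without changing its difference.

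All 9 T cell markers and 11 of the 12 Treg markers listed were placed and tested, and the sum of each list was high in each library. Foxp3 stood at 561 and 543 CPM (counts scaled to a common library size by the TMM method) in SP-9 and SP-10, and at 652 and 615 in Ischemia-4 and Ischemia-3. The brain libraries were slightly above the spleen libraries, and the difference did not pass the test (log2 fold change 0.20, SE 0.10, adjusted p = 0.13). Other Treg markers did change. Of the 11 tested, 6 were higher in the brain, such as Ctla4 (2.72), and 3 were lower, such as Gpr83 (-2.96). Gpr83 stood at 11.9 and 10.2 CPM in Ischemia-4 and Ischemia-3. Of the 9 T cell markers, 5 were higher in the brain, among them Cd4 (0.43, adjusted p = 0.0022) and Trac, the constant part of the T cell receptor alpha chain (0.56, adjusted p = 0.00027), and 4 did not pass, among them the beta chain genes Trbc1 (-0.14) and Trbc2 (-0.24). Several defining markers of other brain cells were at or near 0. Gfap, the astrocyte filament, had 1 count in SP-10 and 0 in the other 3 libraries, and Rbfox3 and Tubb3 of neurons, Mog and Mag of oligodendrocytes and Cldn5 of endothelium had none in any library. Some members had counts only in the brain, among them Ermn (20 and 0 in Ischemia-4 and Ischemia-3), Gja1 (5 and 3) and Gad2 (5 and 1). Aldh1l1 had counts only in the spleen (20 and 4). The astrocyte list summed to 7.98 and 4.63 CPM in the spleen and 7.91 and 9.48 in the brain. The neuron list summed to 5.53 and 2.42 against 12.8 and 15.8 CPM. The oligodendrocyte list summed to 312 to 335 CPM in all 4 libraries, nearly all of it Mbp and Cnp.

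Myeloid markers were low and differed between the groups. The 13 placed monocyte and macrophage markers summed to 10.1 and 10.6 CPM in the SP-Treg libraries and to 74 and 56.6 in the Ischemia-Treg libraries, with Adgre1 (F4/80) at 2 and 2 counts in the spleen and 0 in the brain. The 7 dendritic cell markers summed to 2 and 0.22 CPM in the spleen and to 29.4 and 32.3 in the brain. The sum of the 11 microglia markers was 58.6 and 63 CPM in the spleen against 81.5 and 63.2 in the brain, with SP-10 and Ischemia-3 nearly equal. Its members went both ways, with Fcrls at 0 and 0 counts in the spleen and 13 and 19 in the brain, Cx3cr1 at 1 and 0 against 55 and 26, P2ry12 at 0 and 0 against 21 and 2, and Gpr34 lower (-0.94). Tmem119 had 2 and 0 counts in the spleen and 4 and 0 in the brain. The 7 CD8 and NK cell markers summed to 30.9 and 20.5 CPM in SP-Tregs and to 78.2 and 64.4 in Ischemia-Tregs, and of the 3 tested, Cd8a (2.81) and Cd8b1 (1.34) were higher. The 6 placed genes of MHC class II and its machinery summed to 131 and 155 CPM in SP-Tregs and to 361 and 472 in Ischemia-Tregs. The B cell sum was lower in the brain, with 511 and 429 against 306 and 307 CPM over 11 genes. Most of it was Ighm, at 455 and 359 against 244 and 247 CPM (-0.73). The other 10 B cell markers did not pass, and the median log2 fold change of the list was 0.29. Erythroid markers were lower too, with 6.14 and 5.07 against 1.13 and 0 CPM over 6 genes. The part of these other cells in the results below was not tested.

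**Figure D1:**
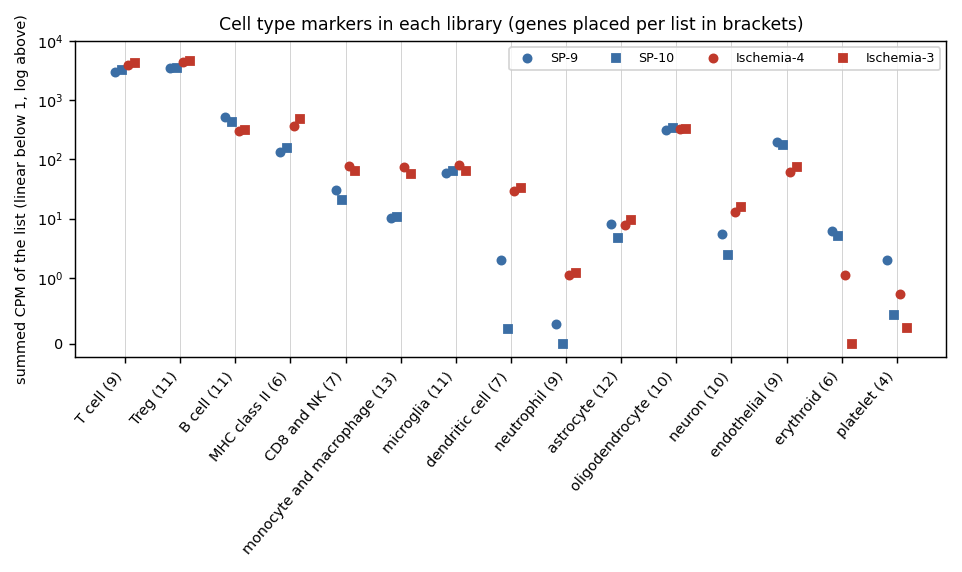
Summed CPM of each cell type marker list in the 4 libraries, on an axis that is linear below 1 and logarithmic above. The number of placed genes stands in brackets after each list, blue points are SP-Treg libraries and red points Ischemia-Treg libraries. T cell and Treg markers lie between 3025 and 4512 CPM, the monocyte and macrophage sum goes from 10.1 and 10.6 to 74 and 56.6, and the neutrophil, astrocyte, neuron, erythroid and platelet sums are at most 15.8.

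Of 10485 genes with enough counts for the test, 1620 were higher and 1407 lower in Ischemia-Tregs at an adjusted p under 0.05 (edgeR quasi-likelihood test with Benjamini-Hochberg adjustment). These are 15.5% and 13.4% of the genes tested, 28.9% in both directions, and the counts of each gene group below are to be read against these shares. By over 2-fold, 764 genes were higher, or 7.29% of those tested, and 594 lower, or 5.67%. Large rises outnumbered large falls, with 101 genes higher and 24 lower by over 16-fold. Leaving out SP-9 reduced the lower genes from 1407 to 715 and leaving out SP-10 reduced them to 930, and 896 of the higher and 496 of the lower genes passed in all 4 fits that leave a library out. Of the genes called, 53.5% were higher, and with upper-quartile scaling in place of TMM the split turned to 43.3%, with 1360 higher and 1781 lower. The median log2 fold change over all genes tested was -0.01.

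**Figure D2:**
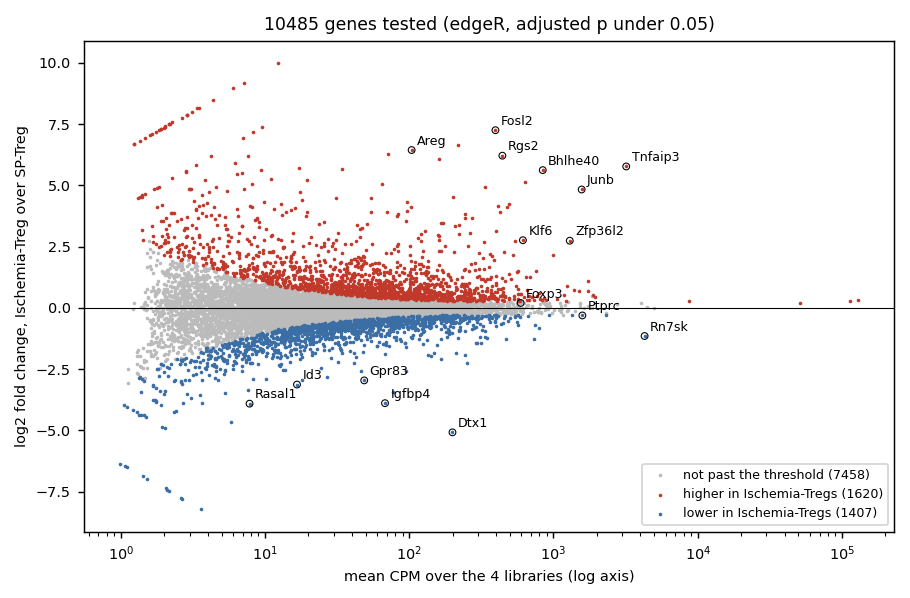
Each point is 1 of the 10485 genes tested, with its mean CPM over the 4 libraries on a log axis and its log2 fold change between Ischemia-Tregs and SP-Tregs. Red points are the 1620 higher genes, blue points the 1407 lower genes and grey points those not past the threshold, and the lines of points at the low end are genes with 0 or 1 count in a group. Tnfaip3 stands apart as a gene that combines a high level with a log2 fold change of 5.77, and Dtx1 is the lowest of the labelled genes at -5.08.

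The largest rises with at least 10 CPM were Atf3, Spp1, Apol8, Hapln1, Fosl2, Dkk3, Cxcl2, Fos, Areg, Nr4a2, Rgs2 and Nrgn. Spp1 and Cxcl2 are also expressed by myeloid cells, whose markers were higher in the same libraries (74 and 56.6 against 10.1 and 10.6 CPM), and their part in these rises was not tested. Fosl2, a member of the AP-1 family of transcription factors (chr5:32135801-32157842 of GRCm38), stood at 5.22 and 5.07 CPM in the SP-Treg libraries and at 825 and 749 in the Ischemia-Treg libraries, with a log2 fold change of 7.25 (SE 0.16, adjusted p = 1.5e-19). Nrgn, which encodes neurogranin, a calmodulin-binding protein best known from neurons, had 0.153 and 0.22 CPM in the spleen and 15.8 and 14.3 in the brain (6.20, SE 0.68, adjusted p = 2.5e-07). Rbfox3, Tubb3 and Stmn2 are among the 5 of 10 neuron markers that had no count in any of these libraries. Map2 had 35 and 11 counts in the spleen and 60 and 57 in the brain, a difference that did not pass without SP-10. The sum of the neuron markers was higher in both brain libraries, at 12.8 and 15.8 CPM against 5.53 and 2.42. The part of neurons in the rise of Nrgn was not tested. Apol8, of the apolipoprotein L family, had no count in SP-9 and SP-10 and 89 and 30 counts in Ischemia-4 and Ischemia-3, which is at least 46.5-fold higher if the spleen group is set to 3 counts in all. For Hapln1, Dkk3 and Cxcl2, the spleen held a single count in SP-10, and the estimate for Hapln1 ranged from 6.20 without Ischemia-4 to 9.68 without SP-10.

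Among the largest falls were Dtx1, Tmie, Rasal1, Igfbp4, Gata1, Id3, Gpr83, Sorcs2, Ryr2, Zfp873 and Prag1. Dtx1, which encodes the ubiquitin ligase Deltex 1, a target and regulator of Notch signalling, stood at 365 and 410 CPM in the spleen and at 10.2 and 12.9 in the brain (log2 fold change -5.08, SE 0.15, adjusted p = 3.8e-17). Rasal1, a Ras GTPase-activating protein, had 17 and 12.3 CPM in the spleen and 0.753 and 1.22 in the brain (-3.91, SE 0.53, adjusted p = 6.1e-06). The pair are neighbours on chromosome 5, where Rasal1 on the plus strand (120648812 to 120679597) and Dtx1 on the minus strand (120680202 to 120711927) point toward each other with 604 bases between them. Gpr83, an orphan receptor typical of resting Tregs, fell from 88.9 and 84.1 CPM to 11.9 and 10.2 (-2.96, SE 0.20, adjusted p = 6.3e-11). Igfbp4, a binding protein of insulin-like growth factors that marks naive T cells, stood at 126 and 128 CPM in the spleen against 4.71 and 13.1 in the brain. Its log2 fold change was -3.89 (SE 0.25, adjusted p = 3.0e-11), with -4.74 without Ischemia-3 and -3.27 without Ischemia-4. Ryr2, a calcium release channel, fell with almost identical values within each group, from 14.1 and 15 CPM to 1.88 and 1.94 (-2.91, SE 0.46, adjusted p = 4.3e-05).

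**Figure D3:**
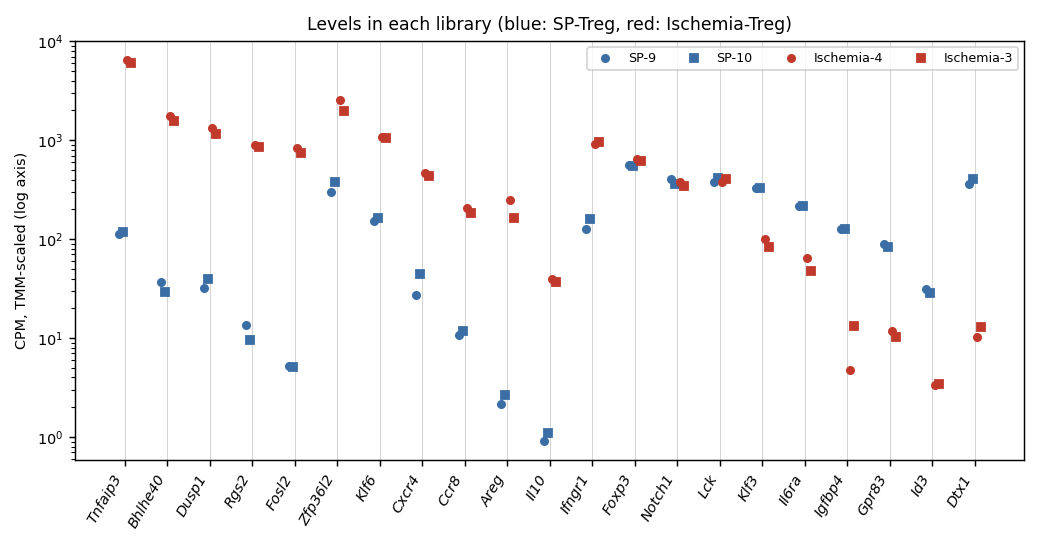
CPM of 21 genes in each library on a log axis, with SP-Treg libraries in blue and Ischemia-Treg libraries in red. The 12 genes on the left stand higher in both brain libraries, Foxp3, Notch1 and Lck lie within a narrow band in all 4, and the 6 genes on the right stand lower in both brain libraries, with Igfbp4 showing the widest gap between the Ischemia-Treg libraries.

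Early response genes had the highest median of the 33 pathway lists with at least 8 genes tested. Of 21 tested, 17 were higher and 1 lower, with a median log2 fold change of 4.10 against -0.01 for all genes, and 16 of the 17 were called in each fit that leaves a library out. Junb, an AP-1 subunit, stood at 98.2 and 116 CPM in the spleen and at 3092 and 2970 in the brain (4.83, SE 0.12, adjusted p = 6.3e-19). Fosb, another AP-1 subunit, went from 4.30 and 5.29 CPM to 304 and 329 (6.06, SE 0.17, adjusted p = 1.2e-17). Nr4a1 (4.10) and Nr4a3 (3.92) rose as well. Members of the Egr family moved much less. Egr1 was higher by 0.94 (adjusted p = 4.6e-06), and Egr3 had 49.1 and 41.9 against 47.8 and 40.4 CPM, with overlapping groups (-0.05, adjusted p = 0.88). Myc was the gene of this list that fell, from 101 and 104 CPM to 64.2 and 50.8 (-0.82, SE 0.15, adjusted p = 0.0002).

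A full cAMP response element, the palindrome TGACGTCA, which CREB and related factors bind, was in promoters of 25 genes higher by over 2-fold. Areg, Dusp1 and Ppp1r15a are 3 of these 25, and of the 3 only Ppp1r15a is in the early response list. The promoters of these 3 are shown because the genes differ in function and share this sequence. The 300 bases run from 250 before to 50 after the start of the gene, 5′ to 3′ on the gene's strand, from RefSeq on GRCm38.p6, with the element in capitals. Areg lies at chr5:91139349-91139648 on the plus strand, Dusp1 at chr17:26508423-26508722 on the minus strand and Ppp1r15a at chr7:45526219-45526518 on the minus strand.
Areg: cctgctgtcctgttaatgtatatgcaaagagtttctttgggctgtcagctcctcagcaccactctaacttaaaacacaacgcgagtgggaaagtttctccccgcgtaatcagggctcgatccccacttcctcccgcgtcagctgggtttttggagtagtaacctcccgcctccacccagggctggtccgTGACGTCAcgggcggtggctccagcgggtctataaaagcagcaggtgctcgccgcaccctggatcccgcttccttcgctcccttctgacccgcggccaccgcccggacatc
Dusp1: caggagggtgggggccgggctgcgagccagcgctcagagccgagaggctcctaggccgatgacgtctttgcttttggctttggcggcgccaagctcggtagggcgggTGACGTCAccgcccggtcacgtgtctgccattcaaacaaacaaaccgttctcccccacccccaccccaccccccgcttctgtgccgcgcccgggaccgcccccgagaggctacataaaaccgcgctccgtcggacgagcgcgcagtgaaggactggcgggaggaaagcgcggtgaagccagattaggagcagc
Ppp1r15a: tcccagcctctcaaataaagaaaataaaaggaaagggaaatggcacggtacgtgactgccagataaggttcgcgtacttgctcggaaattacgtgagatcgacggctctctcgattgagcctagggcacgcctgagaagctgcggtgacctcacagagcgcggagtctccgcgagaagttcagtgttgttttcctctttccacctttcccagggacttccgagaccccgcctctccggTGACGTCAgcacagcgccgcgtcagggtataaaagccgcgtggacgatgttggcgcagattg

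The element begins 61 bases before the start in Areg, 143 in Dusp1 and 12 in Ppp1r15a. Areg, the amphiregulin gene, had 2.15 and 2.64 CPM in the spleen and 247 and 164 in the brain. Dusp1, a phosphatase that switches off MAP kinases, had 32.4 and 39.6 against 1323 and 1158 CPM (5.12, SE 0.13, adjusted p = 2.3e-18). Ppp1r15a, also called GADD34, which lets protein synthesis recover after stress, had 17.8 and 25.3 against 676 and 620 CPM (4.94, SE 0.15, adjusted p = 2.8e-17). A promoter in the RefSeq table was found for 7941 of the genes tested. The element on either strand was in 3.44% of 726 promoters of genes higher by over 2-fold, 1.37% of 583 promoters of genes lower by over 2-fold, 3.20% of 10168 promoters of all genes tested and 1.79% of all 32851 in the table. The AP-1 site TGACTCA was in 6.47%, 4.29%, 3.41% and 5.20% of the same sets, the NF-κB site GGGACTTTC in 0.964%, 0.515%, 0.384% and 0.353%, and the sterol site CACCCCAC in 2.75%, 2.74%, 2.98% and 2.87%. The raised genes thus held the cAMP element at close to the share of all genes tested, and no test was run on these shares.

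Inhibitors of signalling rose across several pathways. Tnfaip3, which encodes A20, a ubiquitin-editing enzyme that ends NF-κB signalling (chr10:19000910-19015657), stood at 112 and 118 CPM in the SP-Treg libraries and at 6501 and 6054 in the Ischemia-Treg libraries, a log2 fold change of 5.77 (SE 0.11, adjusted p = 3.1e-20). It was among the 10 called genes with the highest mean level. Of 18 genes of NF-κB and its feedback, 14 were higher and 1 lower, with a median of 1.05, and 12 of the higher genes passed in every fit that leaves a library out. Among the IκB family genes of this list, Nfkbid (2.34), Nfkbia, which encodes IκBα (2.27), Nfkbiz (2.11) and Nfkbie (1.09) rose. The subunits Nfkb2 (1.28), Rel (1.25) and Nfkb1 (0.53) rose as well, while the subunit Rela (0.24) and the A20-binding inhibitor Tnip1 (-0.16) did not pass. Cflar, an inhibitor of death receptor signalling, was the gene that fell (-0.61).

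Among 24 brakes on MAP kinase, Ras and G protein signalling, 12 were higher and 5 lower, with a median of 0.82. Rgs2, a GTPase-activating protein for G proteins, stood at 13.5 and 9.47 CPM in the spleen and at 890 and 857 in the brain (6.21, SE 0.15, adjusted p = 6.3e-19). Dusp5, a nuclear phosphatase of ERK, had 46.8 and 51.3 CPM against 899 and 956 (4.24, SE 0.12, adjusted p = 9.9e-18). The genes that fell in this list were Rasal1 and the smaller falls of Rasa2 (-0.73), Rgs14 (-0.63), Rasa3 (-0.59) and Rgs3 (-0.51), of which Rgs14 did not pass without SP-10 or without Ischemia-4 (-0.46 and -0.47). The Ras GTPase-activating gene Rasal3 (0.15) and the phosphatase genes Dusp6 (0.38) and Dusp2 (0.39) did not pass.

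Factors that shorten the life of messenger RNA rose together. Of 11 tested, 8 were higher and 1 lower, with a median of 1.70, and all 8 passed in each fit that leaves a library out. Zfp36l2, which binds AU-rich elements and recruits the decay machinery, had 297 and 379 CPM in the spleen and 2551 and 1965 in the brain (2.74, SE 0.13, adjusted p = 1.2e-13). Its relatives Zfp36 (2.24) and Zfp36l1 (2.14) rose too, as did Zc3h12a, the RNase Regnase-1 (1.70), and Tob2, an adaptor of the CCR4-NOT deadenylase (2.51). Cnot1, the scaffold of that deadenylase, was lower (-0.40), and did not pass without Ischemia-4 (-0.34). Messages of early response genes and cytokines are known targets of these factors.

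Genes of T cell receptor signalling went both ways by small amounts. Of 24 tested, 5 were higher and 4 lower, with a median of 0.00. Lck, the kinase that starts the signal, had 379 and 414 CPM in the spleen and 379 and 407 in the brain, with overlapping groups (-0.01, SE 0.10, adjusted p = 0.94). Zap70 was at 0.15 and did not pass. The members past the threshold were small in size, from Cd3g (0.71), a chain of the receptor complex, and Sh2d2a, an adaptor (0.69), to Prkcq, protein kinase C theta (-0.78).

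Transcription factors of tissue Tregs rose in most cases, and those of naive T cells fell. Of 21 tissue Treg factors, 18 were higher and 1 lower, with a median of 1.35, and 15 of the higher genes passed in every fit that leaves a library out. Bhlhe40, a basic helix-loop-helix repressor of activated lymphocytes, stood at 37.3 and 29.3 CPM in SP-Tregs and at 1760 and 1546 in Ischemia-Tregs (5.62, SE 0.13, adjusted p = 6.3e-19). Zeb2, a zinc finger repressor of transcription, had 1.84 and 1.54 CPM against 24.5 and 28.2 (3.92, SE 0.38, adjusted p = 4.3e-08). Nfil3 (3.91), Rora (2.69) and Id2 (2.87) were higher as well, and the factors Irf4 (0.90), Batf (0.88), Maf (0.61) and Ikzf2 (0.40) by less.

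Of 15 naive T cell factors, 9 were lower and 3 higher, with a median of -0.58, and 8 of the 9 passed in each fit that leaves a library out. Klf3, a repressor of the Krüppel-like family, stood at 330 and 327 CPM in the spleen and at 99.8 and 83.4 in the brain (-1.84, SE 0.12, adjusted p = 4.1e-11). Id3, which blocks E proteins, had 31.3 and 28.6 CPM against 3.39 and 3.40 (-3.13, SE 0.32, adjusted p = 9.3e-08), while its relative Id2 moved up. Satb1, a chromatin organizer, was at -1.19, and Ets1 (-0.01) and Bcl11b (-0.05) did not pass. The Krüppel-like factors split in the same manner, with 7 of 10 higher and Klf3 alone lower. Klf6 went from 152 and 165 CPM to 1078 and 1062 (2.76, SE 0.10, adjusted p = 2.7e-15). Klf2, which promotes recirculation and is often low in tissue T cells, was higher in both brain libraries (0.61, SE 0.11, adjusted p = 0.00019).

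Genes of lymphoid homing and adhesion changed in both directions. Ccr7, the chemokine receptor for entry into lymph nodes, had overlapping groups, with 107 and 125 CPM in the spleen and 107 and 128 in the brain (0.01, SE 0.13, adjusted p = 0.95). S1pr1, the receptor for exit from lymphoid tissue, was lower (-0.42, adjusted p = 0.0041). Of 20 genes of exit and adhesion, 10 were higher and 3 lower, with a median of 0.32. The integrin alpha V gene Itgav, part of receptors that activate TGF-β, rose from 128 and 119 CPM to 363 and 351 (1.54, SE 0.11, adjusted p = 2.5e-10), and Itga6, a laminin receptor chain, fell (-1.08).

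Chemokine receptors were mostly higher. Of 15 tested, 12 were higher and 2 lower, with a median of 1.86. Cxcr4, the receptor of CXCL12, had 27.2 and 44.5 CPM in the spleen and 463 and 437 in the brain (3.68, SE 0.16, adjusted p = 2.2e-14). Cxcr6, a receptor of resident T cells, had 5.99 and 7.49 against 98.5 and 105 CPM (3.93, SE 0.20, adjusted p = 7.5e-13). Ccr8 (4.13), Ccr2 (1.86) and Cxcr3 (1.23) rose too, and Cxcr5, the receptor for entry into B cell follicles, fell from 72.1 and 76 CPM to 34.6 and 29.7 (-1.20, SE 0.17, adjusted p = 1.1e-05). The fall of Ccr9, a gut homing receptor, (-1.52) did not pass without SP-9 (-1.51), SP-10 (-1.52) or Ischemia-4 (-1.12). Cx3cr1 and Xcr1, which myeloid and dendritic cells also express, had a single count between SP-9 and SP-10 and up to 10.4 and 7.29 CPM in a brain library, where the dendritic cell markers summed to 29.4 and 32.3 CPM. Of 12 chemokine ligands, 7 had no count in the spleen and were not tested. The 5 tested were all higher. Of these, Ccl4 and Cxcl2 had a single spleen count each and passed the count filter through the brain libraries, so they could only be called higher. Ccl5, which T cells and NK cells make, went from 15.8 and 14.1 to 158 and 193 CPM (3.54, SE 0.16, adjusted p = 1.0e-13). The CD8 and NK cell markers were higher in the same libraries, as given above, and their part in this rise was not tested. Ccl1, the ligand of CCR8, went from 1.69 and 1.54 to 9.60 and 23.3 CPM (3.31, SE 0.52, adjusted p = 3.9e-05), with 2.55 to 3.83 over the fits that leave a library out.

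**Figure D4:**
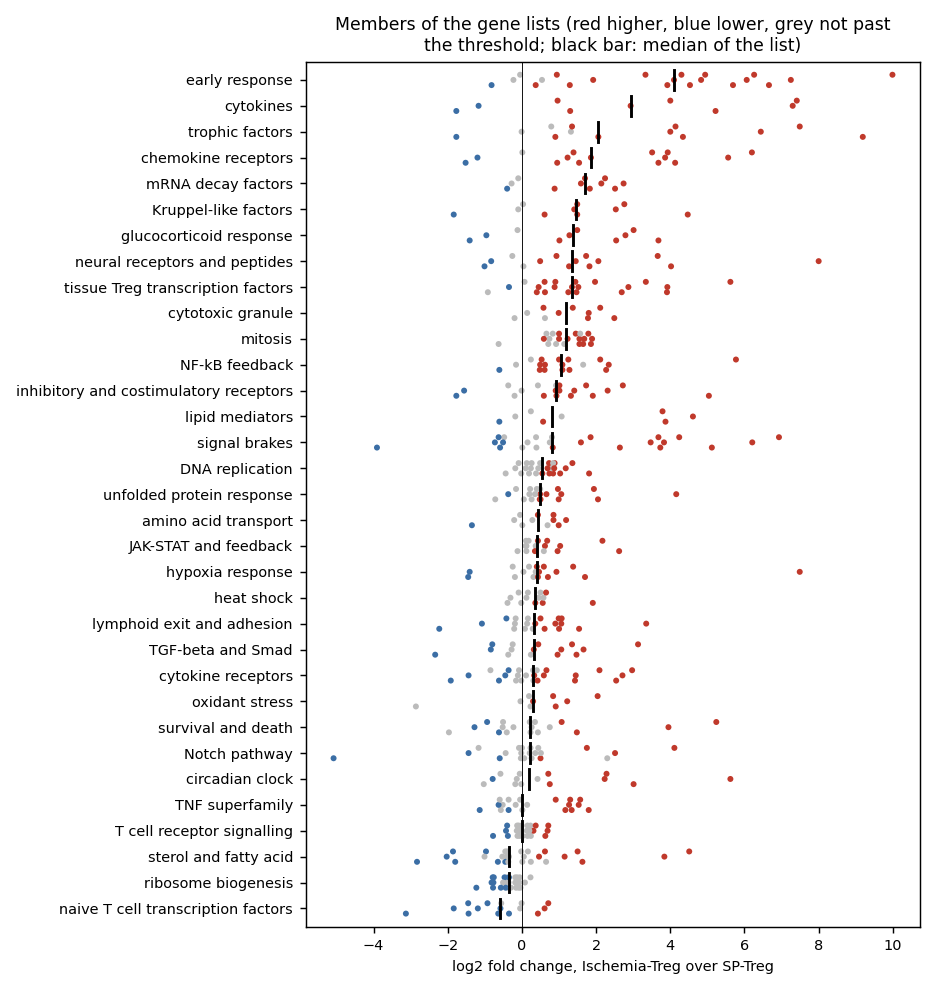
Log2 fold change of every tested member of 33 gene lists with at least 8 tested members, ordered by the median, which is the black bar. Red members were higher, blue lower and grey not past the threshold. Early response genes have the highest median, at 4.10, T cell receptor signalling sits at 0.00 with a narrow spread, and naive T cell transcription factors are lowest at -0.58, and the Notch list has Dtx1 as its lowest member.

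Cytokine receptors changed selectively. Of 24 tested, 10 were higher and 5 lower, with a median of 0.31, and 7 and 3 of these passed in all 4 fits that leave a library out. Ifngr1, the ligand-binding chain of the interferon-γ receptor, stood at 127 and 160 CPM in SP-Tregs and at 916 and 955 in Ischemia-Tregs (2.71, SE 0.12, adjusted p = 2.2e-14). Its partner Ifngr2 was higher by 0.59, but did not pass without SP-10 (0.44) or Ischemia-4 (0.31), and the type I chain Ifnar1 was at -0.11 and did not pass. Both chains of the IL-6 receptor fell. Il6ra had 214 and 214 CPM in the spleen and 63.8 and 48.1 in the brain (-1.92, SE 0.14, adjusted p = 2.4e-10), and Il6st, which encodes the shared chain gp130, had 423 and 432 against 143 and 174 CPM (-1.44, SE 0.11, adjusted p = 1.5e-09). Receptors of the IL-1 family rose together, with Il1rl1 (2.97), the decoy receptor Il1r2 (2.54), Il18rap (2.09) and Il18r1 (1.43), whereas the accessory chain Il1rap was at 0.11 and did not pass. Il2ra, which encodes CD25, was at 607 and 609 CPM in the spleen and 488 and 459 in the brain (-0.36, adjusted p = 0.0074), and it did not pass without Ischemia-3 (-0.32).

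In the JAK-STAT list, 8 of 16 genes were higher and none lower, with a median of 0.40. The kinase genes Pim3 (2.62) and Pim1 (2.17) rose most, followed by the kinase gene Jak2 (1.03) and Cish (0.96), a target of STAT5, with Pim1 at 181 and 203 CPM in the spleen and 919 and 809 in the brain. Socs1 (-0.12), Socs2 (0.37) and Stat5b (0.18) did not pass. Of 9 cytokine genes tested, 7 were higher and 2 lower. Among the 7, Csf2 and Il1b passed the count filter through the brain libraries alone, so they could only be called higher. Il10, the inhibitory cytokine, had 0.921 and 1.10 CPM in the spleen and 39.5 and 36.5 in the brain (5.22, SE 0.37, adjusted p = 2.0e-10). Csf2 and Il1b had no count in the spleen and 29 and 11, and 20 and 16, counts in Ischemia-4 and Ischemia-3, at least 15.6-fold and 14.1-fold higher, and Il1b is a gene of myeloid cells, whose markers were higher in the same libraries. Il13 and Il5 were not tested, with 44 and 26 counts in Ischemia-4 but 2 and 1 in Ischemia-3, so these type 2 cytokines came almost wholly from a single library.

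Checkpoint and costimulatory receptors were higher in 12 of 19 genes and lower in 2, with a median of 0.93. Icos, which sustains effector Tregs, had 40.7 and 39.4 CPM in the spleen against 127 and 140 in the brain (1.73, SE 0.14, adjusted p = 2.5e-09). Btla, an inhibitory receptor of resting lymphocytes, fell from 98.4 and 80.4 to 31.4 and 29.4 CPM (-1.56, SE 0.17, adjusted p = 2.1e-07). The adenosine-producing ectoenzymes Entpd1 (CD39, 0.43) and Nt5e (CD73, -0.01) did not pass, while the adenosine receptor Adora2a rose (1.82, SE 0.16, adjusted p = 9.7e-09). In the TNF superfamily, 8 of 19 were higher and 3 lower, with a median of 0.01. Tnfrsf4 (OX40, 1.80), Tnfsf11 (RANKL, 1.53) and Tnfsf10 (TRAIL, 1.34) rose, and Tnfrsf1a, the broadly expressed TNF receptor, fell (-1.14), in contrast with Tnfrsf1b, the TNF receptor of Tregs (1.27).

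In the list of neural receptors and peptides, which includes semaphorins and Penk, 10 of 14 genes tested were higher and 2 lower, and all 10 rises passed in each fit that leaves a library out. Ednrb, the endothelin receptor type B, had no count in the spleen and 34 and 25 counts in Ischemia-4 and Ischemia-3, at least 23.1-fold higher. Ramp3 and Ramp1, which turn the calcitonin-like receptor into receptors for adrenomedullin and CGRP, were both higher, with Ramp3 at 1.23 and 1.32 against 13.9 and 18.7 CPM (3.66, SE 0.49, adjusted p = 4.7e-06) and Ramp1 at 1.73. Receptors of vasoactive intestinal peptide moved in opposite directions. Vipr2 rose from 0.307 and 0.441 to 5.08 and 7.54 CPM (4.02, SE 0.81, adjusted p = 0.00067), and Vipr1 fell from 24.4 and 17.2 to 8.85 and 12.2 CPM (-1.01, SE 0.30, adjusted p = 0.016), which did not pass without SP-9 (-0.72) or Ischemia-4 (-0.79). P2rx7, the ATP channel that can kill Tregs, fell from 155 and 166 to 89.4 and 91.4 CPM (-0.83, SE 0.12, adjusted p = 1.9e-05). The serotonin receptor gene Htr7 had 13 counts in Ischemia-3 and 0 in each of the other 3 libraries, which was too few to test.

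In the TGF-β pathway, 8 of 15 genes were higher and 3 lower, with a median of 0.32. Tgif1, a repressor of Smad-driven transcription, had 27.6 and 25.1 CPM in the spleen and 236 and 227 in the brain (3.13, SE 0.14, adjusted p = 3.1e-14). The other rises included the inhibitors Skil (1.66) and Smad7 (1.47) and the ligand gene Tgfb1 (0.96). Tgfbr3, the co-receptor betaglycan, fell (-2.34), and Tgfbr1, Smad2 and Smad4 did not pass, at -0.25, -0.37 and -0.28. In the Notch list, 4 of 21 genes were higher and 3 lower, with a median of 0.21. Notch1 had 404 and 364 CPM in the spleen against 378 and 347 in the brain (-0.08, SE 0.10, adjusted p = 0.58), and Rbpj, the DNA-binding partner of Notch, rose from 53.1 and 52 to 267 and 334 CPM (2.51, SE 0.13, adjusted p = 9.8e-13). The other rises were the target genes Hey1 (4.11) and Nrarp (1.75) and Psen2 (0.50), and none of these passed without SP-9 (7.02, 1.43 and 0.42), which left 1 higher gene. Without SP-10, Hey1 (3.39) and Nrarp (2.09) did not pass, and without Ischemia-3, Nrarp (1.15) did not. The coactivator gene Maml3 fell (-1.44) and did not pass without SP-9 (-1.38), SP-10 (-1.50) or Ischemia-3 (-1.07).

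Genes of DNA replication and mitosis were higher while genes of ribosome production were lower. Of 25 replication genes, 11 were higher and none lower (median 0.55), and of 20 mitotic genes, 12 were higher and none lower (median 1.18). Tpx2, a spindle assembly factor, had 7.52 and 7.93 CPM in the spleen and 25 and 24.6 in the brain (1.68, SE 0.29, adjusted p = 0.00013), and Lig1, the replicative DNA ligase, rose too (1.81, SE 0.17, adjusted p = 1.8e-08). Fewer genes passed with a library left out, with 7 replication genes without SP-10 and 7 mitotic genes without SP-9. Of 27 genes of ribosome biogenesis, none was higher and 10 were lower, with a median of -0.36, and without SP-9 or SP-10 the lower genes numbered 6. Wdr12, which processes large subunit RNA, had 30.7 and 27.3 CPM against 13.9 and 10.7 (-1.23, SE 0.26, adjusted p = 0.0011), and Nolc1, a nucleolar chaperone, fell by 0.76. Myc, which drives ribosome production, belongs to this list as well. The 72 ribosomal protein genes tested counted 1 higher and 4 lower, with a median of -0.10. Cdkn1a, which encodes the cell cycle inhibitor p21, was also higher, from 0.307 and 0.881 to 26.2 and 17 CPM (5.24, SE 0.53, adjusted p = 7.7e-08), with 4.58 to 6.04 over the fits that leave a library out.

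Genes of cholesterol export were higher. Abca1, the exporter that passes cholesterol to apolipoproteins, stood at 35.2 and 27.5 CPM in the spleen and at 450 and 455 in the brain (3.84, SE 0.13, adjusted p = 4.9e-16), and Abcg1, another exporter, had 136 and 135 against 362 and 402 CPM, with an adjusted p of 3.9e-10. Of the 27 genes of the sterol and fatty acid list, 7 were higher and 7 lower, with a median of -0.35, and the lower genes numbered 3 without SP-9 and 4 without SP-10. Odc1, the first enzyme of polyamine synthesis and outside every list, rose from 75.7 and 87 to 700 and 741 CPM (3.15, SE 0.11, adjusted p = 1.2e-15).

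Stress pathways differed in how far they moved. Of 20 genes of the unfolded protein response, 10 were higher and 1 lower (median 0.48), with Dnajb9, an ER chaperone, at 1.94 and Atf6, a sensor, at 1.06, whereas Herpud1 (-0.16) and Ddit3 (-0.72) did not pass. Of 13 heat shock genes, 4 were higher and none lower (median 0.36), led by the co-chaperone Bag3, at 18.3 and 18.3 against 68.4 and 69.5 CPM (1.91, SE 0.19, adjusted p = 4.8e-08), while Hsph1 (-0.31) and Dnajb1 (0.50) did not pass. Of 10 glucocorticoid response genes, 7 were higher and 2 lower (median 1.38), and all of these calls stood in each fit that leaves a library out. Nr3c1, the glucocorticoid receptor, had 177 and 177 CPM against 457 and 403 (1.28, SE 0.11, adjusted p = 3.9e-09), and Sgk1 (2.79) and Per1 (3.01) rose, while Ddit4 (-1.41) and Txnip (-0.96) fell. Per1 is also a clock gene. Among 14 clock genes, 6 were higher and 1 lower, and Clock (-0.18), Cry1 (-0.02), Cry2 (-0.06) and Per2 (-0.14) did not pass. The core gene Arntl, which encodes BMAL1, was higher (0.71) and did not pass without SP-10 (0.54). Of 18 survival and death genes, Bcl2 fell (-1.28) and Bcl2l1, which encodes BCL-XL, rose (1.48), as did Pmaip1, the p53 and stress target NOXA, from 12 and 11.5 to 199 and 165 CPM (3.95, SE 0.17, adjusted p = 1.7e-14).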

How the data were processed

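Poly(A) RNA of sorted Tregs was sequenced from a stranded NEBNext kit. The deposited table holds whole-number counts per gene, which per the labels and the submitters' processing notes the authors made with HISAT2 2.0.1 and HTSeq 0.6.1 on mm10, while the study's methods name featureCounts. Its gene IDs match GENCODE on GRCm38. Counts were not beside their own ID below the first stretch of the table, so counts were taken from the row that stands 0 to 19 rows below the ID, by slides found earlier on these data for 8 stretches. The slides were checked in windows of 100 IDs against the co-cultured Tregs of the table, where 254 of 255 windows correlated best at the slide used, and 29997 IDs outside these stretches were left out. The 4 columns carry the group but no replicate number of the labels.

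Genes kept by filterByExpr were tested with edgeR 4.0.16 (R 4.3.3) by the quasi-likelihood test on the 4 libraries, with TMM scaling, Benjamini-Hochberg adjustment over all 10485 genes and an adjusted p threshold of 0.05. SE is an approximate standard error of the log2 fold change. It was taken as the absolute log2 fold change divided by the square root of the F statistic of the quasi-likelihood test. With 2 libraries a group, an exact permutation test of a single value cannot go below p = 0.333, so none was used. On simulated counts for these 10485 genes, 44.2%, 70.7% and 100% of genes changed by 1.5, 2 and 4-fold were recovered and 6.67% of the calls were false. The simulation changed a far smaller share of genes than was called here. The changed genes were drawn without those of lowest CPM, so these rates do not cover genes with few counts. Alternatives were other scalings and low-count filters, DESeq2 1.42.0, all 10 libraries in a fit, other sets of rows and each library left out. Intervals from counting error were not used, and depth was near-equal between groups.

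Genes named were the 12 largest rises and the 12 largest falls with at least 10 CPM in the higher group and no overlap, the 10 most abundant called genes, up to 4 genes of each list and genes the study names, predicted genes left out. Other genes, such as Junb, Lck, Notch1, Il6ra, Il6st, Nr3c1 and Odc1, were chosen after their values were seen. The members and lists were chosen with earlier results of these data known. Promoters came from RefSeq on GRCm38.p6, and motifs were searched as exact letters on both strands. Some genes of these lists are counted but not reported here.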

Additional observations from a re-analysis of the deposited data

Results flagged for a closer look

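Counts without a placed gene ID also differed between brain and spleen. When all rows of the 4 columns were tested together, 1851 of the 12317 rows tested had no placed ID, and 157 of them were higher and 314 lower in Ischemia-Tregs. These rows cannot be named, and none of them enters a result above. Genes missing from the lists may be among them.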

How the results depend on the processing

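No paired analysis was possible because the columns of the 4 libraries carry no replicate number that can be tied to the labels, and the block given below rests on values of the data instead. A single fit of all 10 libraries called 2707 genes higher and 2401 lower, and 1175 higher by over 2-fold. Only rows that were not moved, of which 2595 were tested, gave 453 higher and 386 lower, with 190 and 122 by over 2-fold. These settings test more samples and fewer genes, respectively. With a library left out in turn, the lone library of its group is assumed to vary like the others, and the higher genes ranged from 1113 to 1681, the lower from 715 to 1508, those higher by over 2-fold from 624 to 845 and those lower by over 2-fold from 338 to 754. The lowest value of each range came without SP-9 and the highest without Ischemia-3. DESeq2's Wald test called 1252 higher and 977 lower. A block of library pairs by shared ribosomal RNA level and a fit without ribosomal RNA, both chosen after seeing the data, gave 1526 and 1619 higher and 1325 and 1411 lower. Of 208 named genes tested, 164 kept direction and call under each of the 14 alternatives that tested them, and none was reversed. Among rows that were not moved, 61 named genes kept their call and 2 lost it, and the others were not tested there. Depth limited genes with few counts, such as Il13, Il5 and Htr7, which were not tested.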

Other observations

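RNA classes differed in how their members split. Of 24 lincRNA genes tested, none was higher in Ischemia-Tregs and 11 were lower, with a median log2 fold change of -0.73. Of 39 snoRNA genes, 1 was higher and 9 lower (median -0.62), and of 41 joining segments of the T cell receptor, none was higher and 8 were lower (median -0.97). The 375 processed pseudogenes counted 22 higher and 13 lower (median 0.13), and the 9839 protein-coding genes had a median of -0.00. With genes split by exonic length into 4 equal groups, the shortest group counted 423 higher and 182 lower, and the longest 375 higher and 561 lower.

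Some called genes next to each other on a chromosome moved the same way. The complement genes C1qb, C1qc and C1qa on chromosome 4, which macrophages and microglia express, went from 1.16, 0.724 and 0.671 mean CPM in the spleen to 8.45, 8.54 and 8.28 in the brain. Rsad2 and Cmpk2, interferon-induced neighbours on chromosome 12, had log2 fold changes of 2.46 and 2.02.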
